A study of Mus musculus with 2 samples.

Results

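The genes described here are 10 components of the circadian clock and of its output, taken by symbol: Arntl, Per2, Per3, Cry1, Cry2, Nr1d1, Nr1d2, Dbp, Nfil3 and Ccrn4l, the older symbol of Noct. All 10 were among the 23284 genes listed, and 9 reached 1 FPKM in at least 1 library; the exception was Per3. FPKM is a level per length: fragments per kilobase of transcript, divided by library depth. Per1 was left out of the 10 because glucocorticoids also induce it, and it is given with the other clock genes. The data are mRNA sequencing of small intestinal epithelial cells from wild-type mice (genotype miR-215+/+) and from mice lacking miR-215 (genotype miR-215-/-), with 1 library for each genotype and no treatment on the labels. The animals' strain, age, sex and number, the hour at which tissue was taken and feeding before it were not given in the sources used here. For rhythmic genes, genotype and any difference in hour between the 2 libraries cannot be told apart. With 1 library per genotype no difference below has a replicate check or a p-value, and "higher" or "lower" describes the knockout library against the wild-type library; "in wild type" and "in knockout" refer to these libraries.

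The mammalian clock is a loop of transcription and its own repression. ARNTL (BMAL1) pairs with CLOCK or NPAS2 on E-box sequences and switches on the Per and Cry genes, whose proteins return to the nucleus and block the pair. The same E-box activity drives Nr1d1 and Nr1d2, which encode the REV-ERB repressors, and these hold down Arntl and Nfil3 through elements shared with the ROR activators. E-boxes also drive Dbp, a PAR bZIP activator that acts on D-box sequences, while NFIL3 represses through the same D-boxes. In the intestine the clock times nutrient uptake, and NFIL3 and nocturnin, the product of Noct, are both known for a part in the handling of dietary fat by enterocytes.

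The clock genes did not differ in 1 direction. Noct was 4.24 times and Per2 2.32 times as high in the knockout library, and Per3 was 1.96 times as high. Nfil3 was 1.90-fold lower, Nr1d1 was 1.26-fold lower, and Arntl was nearly level. On the log2 scale with 1 added to each FPKM, 1 of the 9 clock genes at 1 FPKM or more was at least 2-fold higher, namely Noct, and 0 were at least 2-fold lower. Of all 11504 genes kept on the same minimum, 3.38% were past 2-fold, 1.34% higher and 2.04% lower. Counts of genes past 2-fold are on this scale unless deposited FPKM is named. On deposited FPKM, 2 of the 9 were 2-fold higher, Noct and Per2, against 6.63% of all kept genes past 2-fold, 3.31% higher and 3.32% lower. The median log2 ratio of the 9 was 0.14, with 5 above 0, against -0.05 over all kept genes, of which 44% were above 0.

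Counting error is given for each fold as an exact 95% interval from estimated fragment numbers, which covers neither animals nor preparations. Over all 10 genes this interval lay above 1 for 5 and below 1 for 2; over the 9 kept genes it did so for 4 and 2. Among the 11388 kept genes with a known transcript length, 49.9% had such an interval apart from 1, 19.6% on the higher and 30.3% on the lower side, so an interval apart from 1 was common in these libraries. Scaling both libraries to equal sums multiplied the knockout values by 1.10 and took the median over all kept genes from -0.05 to 0.07. Of the 10 clock genes, Arntl alone changed sign under it, and 7 in place of 6 then had ratios above 1.

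**Figure D1:**
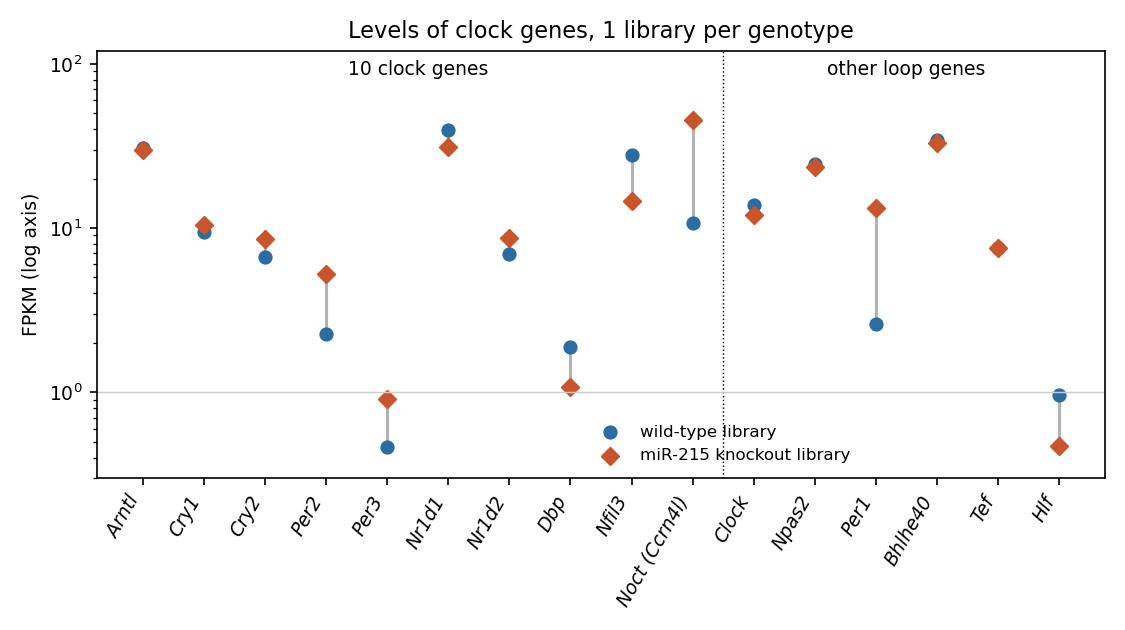
Level in FPKM (log axis) of the 10 clock genes and of 6 other loop genes in the wild-type library (circles) and the miR-215 knockout library (diamonds), 1 library each. Noct, Per2, Per3 and Per1 lie well above their wild-type values, Nfil3 and Hlf lie below, and Arntl, Npas2, Bhlhe40 and Tef nearly coincide.

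Arntl encodes the activator without which the loop stops. It lies on chromosome 7 at 113207465 to 113314126 (plus strand; all gene positions are on GRCm38, the assembly of mm10). Arntl was at 30.6 FPKM in wild type and 29.7 in knockout, on about 749 and 755 fragments. The fold was 0.969, with a counting interval of 0.874 to 1.07, and after scaling to equal sums it was 1.06 (0.960 to 1.18). The sign of the Arntl difference thus turned with the scaling, and both intervals included 1. Among all kept genes its log2 ratio of -0.05 stood at percentile 50.5.

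The Per genes encode the labile partners of the repressor complex. Per2 (chromosome 1, 91415982 to 91459324, minus strand) was at 2.28 FPKM in wild type and 5.28 in knockout, on about 125 and 301 fragments. The knockout library was thus the higher by a fold of 2.32, interval 1.87 to 2.87. Its log2 ratio of 0.94 was the 185th highest of the kept genes and lay just under the 2-fold line. Per3 (chromosome 4, 151003652 to 151044665, minus strand) was the lowest of the 10 in both libraries, at 0.464 and 0.911 FPKM. About 26 and 53 fragments lay behind them, and the fold of 1.96 had an interval of 1.20 to 3.26. With equal sums the folds became 2.55 for Per2 and 2.15 for Per3, both intervals still above 1.

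The Cry genes encode the more stable partners, flavoprotein relatives that give the complex its repressing activity. Cry1 (chromosome 10, 85131700 to 85185064, minus strand) was at 9.39 FPKM in wild type and 10.4 in knockout. Its fold of 1.11 had an interval of 0.937 to 1.32 as deposited and of 1.03 to 1.45 with equal sums, so whether it included 1 depended on the scaling. Cry2 (chromosome 2, 92403646 to 92434043, minus strand) was at 6.67 and 8.55 FPKM, a fold of 1.28 with an interval of 1.08 to 1.52. Both Cry genes were thus within 1.3-fold of the wild-type value as deposited, well short of Per2. Ratios between genes of 1 library do not depend on the scaling between libraries. The summed level of Per2 and Per3 was 0.171 of the summed level of Cry1 and Cry2 in wild type and 0.326 in knockout.

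The REV-ERB genes form the accessory loop that represses Arntl. Nr1d1 (chromosome 11, 98767932 to 98775333, minus strand) was the highest of the 10 in the wild-type library, at 39.4 FPKM, and was at 31.3 FPKM in the knockout library. It was lower in the knockout library, with a fold of 0.794 (0.722 to 0.874) and of 0.872 (0.793 to 0.959) with equal sums. Nr1d2 (chromosome 14, 18204054 to 18239127, minus strand) was at 6.94 and 8.72 FPKM, a fold of 1.26 (1.08 to 1.46). The 2 paralogs therefore differed in opposite directions, and Nr1d1 was 5.67 times the level of Nr1d2 in wild type and 3.59 times in knockout. The annotated exons of Nr1d1 share 263 bases, 8.55% of its annotated exon bases, with Thra, the thyroid hormone receptor alpha gene on the opposite strand. Thra was at 61.9 FPKM in wild type and 43.5 in knockout, a fold of 0.704 (0.646 to 0.766), lower like Nr1d1. The library kit keeps the strand, but whether counting used it was not given in the sources used here, and how much of the Nr1d1 difference comes with Thra was not tested.

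Dbp and Nfil3 act on the same D-box sequence with opposite effect. Dbp (chromosome 7, 45705088 to 45710203, plus strand) was at 1.88 FPKM in wild type and 1.08 in knockout. These values rested on about 30 and 18 fragments only. The fold was 0.571, but the interval of 0.303 to 1.07 included 1, so a difference was not resolved at this depth. The annotated exons of Dbp share 539 bases, 18% of the total, with Sphk2, a sphingosine kinase gene on the opposite strand that was at 40.1 and 35.0 FPKM, and its part in the values of Dbp was not tested. Nfil3 (chromosome 13, 52967209 to 52981073, minus strand) was at 27.8 FPKM in wild type and 14.6 in knockout, on about 489 and 267 fragments. It was the lowest of the clock genes by log2 ratio, at -0.88, the 319th lowest of the kept genes. The fold was 0.525 (0.450 to 0.610) and 0.577 (0.494 to 0.670) with equal sums. Nfil3 exceeded Dbp in both libraries, by 14.8 times in wild type and 13.6 times in knockout, so the deposited levels of repressor and activator were lower by similar folds, that of Dbp within counting error.

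Noct encodes nocturnin, a phosphatase of the deadenylase family that acts on NADP(H) and is named for its nightly peak in the retina; mice without it absorb less dietary fat. Listed as Ccrn4l (chromosome 3, 51224447 to 51251644, plus strand), it was at 10.7 FPKM in wild type and 45.5 in knockout. About 296 and 1308 fragments lay behind these values. The fold was 4.24 (3.74 to 4.83), and 4.66 (4.11 to 5.31) with equal sums. Its log2 ratio of 1.99 was the 32nd highest of 11504, directly before that of Per1. Noct had the highest level of the 10 in knockout but not in wild type, where Nr1d1, Arntl and Nfil3 exceeded it.

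The order of levels was otherwise similar. In the wild-type library it ran Nr1d1, Arntl, Nfil3, Noct, Cry1, Nr1d2, Cry2, Per2, Dbp and Per3. The neighbouring pairs within counting error were Arntl and Nfil3, Noct and Cry1, Nr1d2 and Cry2, and Per2 and Dbp. In the knockout library the order ran Noct, Nr1d1, Arntl, Nfil3, Cry1, Nr1d2, Cry2, Per2, Dbp and Per3. There the pairs within counting error were Nr1d1 and Arntl, Nr1d2 and Cry2, and Dbp and Per3. Set against Arntl in the same library, Per2 went from 0.0743 to 0.178 of its level, Noct from 0.350 to 1.53 and Nfil3 from 0.908 to 0.492. Per2 was 1.21 times Dbp in wild type, within counting error, and 4.91 times in knockout (2.99 to 8.22). Dbp rested on only about 30 and 18 fragments in these ratios.

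**Figure D2:**
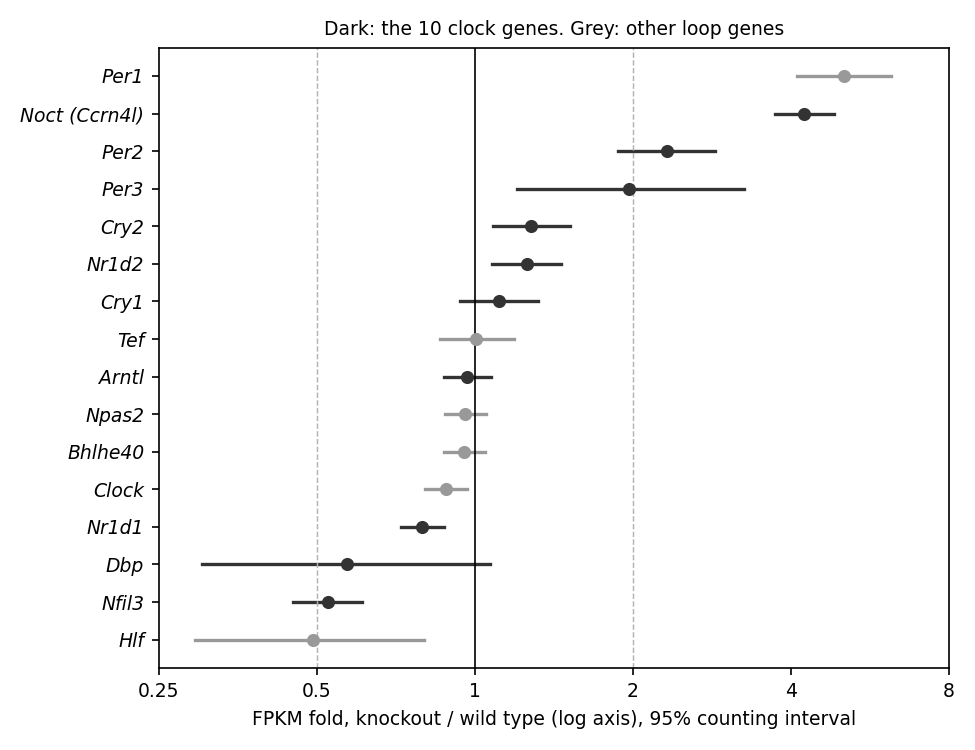
FPKM fold of the knockout over the wild-type library (log axis) with exact 95% counting intervals, for the 10 clock genes (dark) and 6 other loop genes (grey); dashed lines mark 2-fold. Per1, Noct, Per2 and Per3 lead on the higher side, Nfil3 and Hlf on the lower side, and the interval of Dbp crosses 1.

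The other genes of the loop were taken from a list of 11, of which 5 reached 1 FPKM in at least 1 library. Of these 5, 1 was at least 2-fold higher (Per1) and 0 were 2-fold lower, and the median log2 ratio was -0.06. Per1, the sister of Per2 and Per3, was at 2.61 FPKM in wild type and 13.2 in knockout, a fold of 5.05 (4.12 to 6.22). All 3 Per genes were thus higher in the knockout library, and with Per1 included the summed Per level went from 0.333 to 1.02 of the summed Cry level. The genes for the partners of ARNTL were closer to level. Clock was at 13.7 and 12.1 FPKM, a fold of 0.880 (0.802 to 0.965) whose interval included 1 with equal sums (0.881 to 1.06). Npas2, the other partner, was at 24.4 and 23.5 FPKM (fold 0.960, 0.877 to 1.05), and its sign turned with equal sums.

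Rora and Rorb encode activators that compete with the REV-ERB proteins. Rora rested on about 9 and 18 fragments, and Rorb was listed at 0 in both libraries. Bhlhe40, an E-box repressor, was at 34.6 and 33.0 FPKM, a difference that turned sign with equal sums, and its relative Bhlhe41 rested on about 8 and 5 fragments. The PAR bZIP relatives of Dbp did not differ alike. Tef was at 7.52 and 7.57 FPKM (fold 1.01, 0.858 to 1.19), while Hlf, under 1 FPKM, was at 0.959 and 0.471 FPKM (fold 0.491, 0.293 to 0.801). Ciart, listed as Gm129, rested on about 2 fragments in each library, and Arntl2 on 2 and 1, under the floor of 3 fragments.

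Genes for enzymes that modify clock proteins and for cofactors that act with them, a list of 19, all passed the minimum. No member was 2-fold apart in either direction, the median log2 ratio was -0.06, and the range was -0.49 to 0.35. The most abundant, the casein kinase gene Csnk1a1, was at 143 and 120 FPKM. Usp2, a deubiquitinase whose mRNA cycles with the clock, was at 12.0 and 15.5 FPKM (fold 1.30, 1.09 to 1.55).

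**Figure D3:**
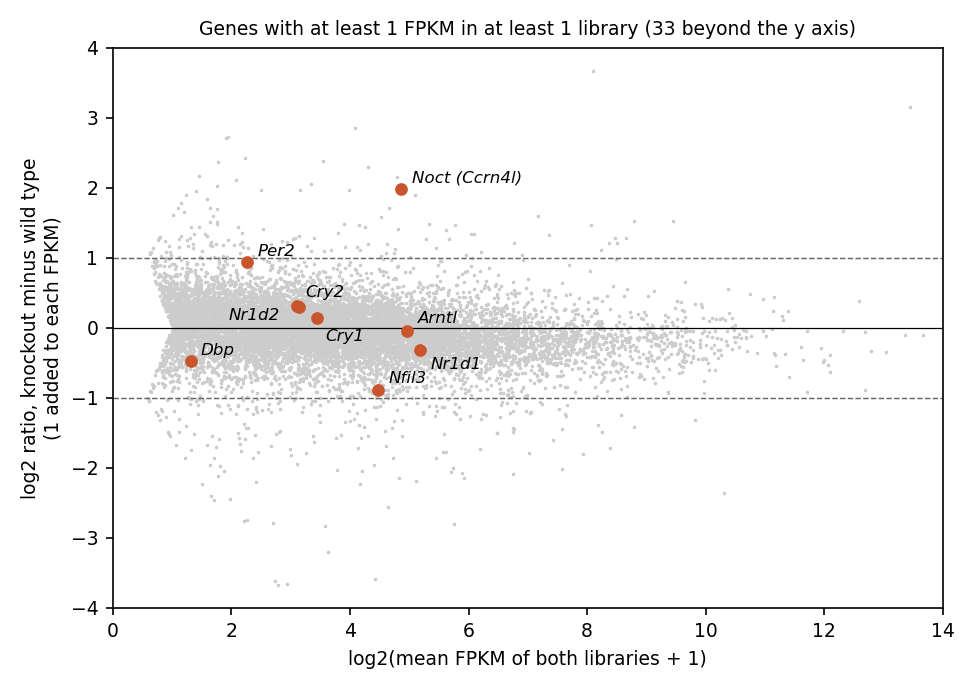
Log2 ratio of the knockout over the wild-type library (1 added to each FPKM) against mean level for the 11504 kept genes (grey) and the 9 kept clock genes (coloured), with dashed lines at 2-fold; 33 genes lie beyond the y axis, which ends at 4 in either direction. Noct is above the 2-fold line, Per2 just under it, Nfil3 just above the lower line, and the remaining clock genes lie within the bulk.

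Genes further down the clock were taken from 4 lists. Of 6 genes that cycle daily in many mouse tissues, 1 was at least 2-fold higher (3 on deposited FPKM) and 0 were 2-fold lower, with a median log2 ratio of 0.53. By log2 ratio 4 were above 0 and 2 below. Among the 3 was Tspan4, on about 4 and 15 fragments only. Cirbp was lower, at 26.1 FPKM in wild type and 13.2 in knockout, a fold of 0.505 (0.412 to 0.620). The glucocorticoid-induced leucine zipper gene Tsc22d3, also the most abundant of the 6, was at 77.5 FPKM in wild type and 160 in knockout. Of 5 target genes of the PAR bZIP proteins, 4 reached 1 FPKM, 3 of them below 0 and none 2-fold apart, with a median of -0.58. The most abundant was Cyp2b10, a drug-metabolizing cytochrome P450, at 260 and 144 FPKM.

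All 4 lipid genes that depend on Nfil3 in gut epithelium reached the minimum, and by log2 ratio 2 were above 0 and 2 below. Cd36, a fatty acid transporter and the most abundant, was at 106 FPKM in wild type and 44.3 in knockout, a fold of 0.419 (0.391 to 0.448). Fabp4, a fatty acid binding protein of fat and endothelial cells, was listed at 0 and at 2.28 FPKM, on about 0 and 16 fragments only. Cidec, which enlarges lipid droplets, was at 59.3 and 95.02 FPKM. The desaturase gene Scd1 was at 3.15 and 2.71 FPKM, within counting error (fold 0.861, 0.676 to 1.11). Of 10 transport and lipid genes with daily rhythms in the intestine, none was 2-fold apart, 4 were above 0 and the median was -0.13. The most abundant, the apolipoprotein gene Apoa4, was at 13536 and 12581 FPKM.

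Genes that respond to hormones or handling were also compared, some of them shared with the lists above, and the glucocorticoid targets were mostly higher in the knockout library. Of 12 glucocorticoid targets, which include Per1 and Tsc22d3, 10 reached 1 FPKM, 5 of them at least 2-fold higher and 1 (Mt2) 2-fold lower, with a median log2 ratio of 0.96. Fkbp5, a co-chaperone of steroid receptors, was at 3.11 and 28.8 FPKM, Ddit4 at 13.6 and 53.2, and the kinase gene Sgk1, the most abundant, at 217 and 503. Mt2, a metallothionein gene that zinc also induces, was at 172 and 39.8 FPKM. Of 14 immediate early genes, 13 reached 1 FPKM, 8 of them above 0 and none 2-fold apart, with a median of 0.28. Dusp1 is in both this list and that of the glucocorticoid targets. On deposited FPKM 1 was 2-fold higher, Fosb at 1.52 and 4.04 FPKM (fold 2.65, 1.92 to 3.70), and 1 was 2-fold lower, Nr4a1 at 1.27 and 0.479 FPKM (fold 0.378, 0.170 to 0.782). The most abundant, Zfp36, was at 152 and 184 FPKM, and Fos was at 96.5 and 157 FPKM. Per2 is itself a known glucocorticoid target and Noct a known immediate early gene, and the part of either response in their values was not tested.

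**Figure D4:**
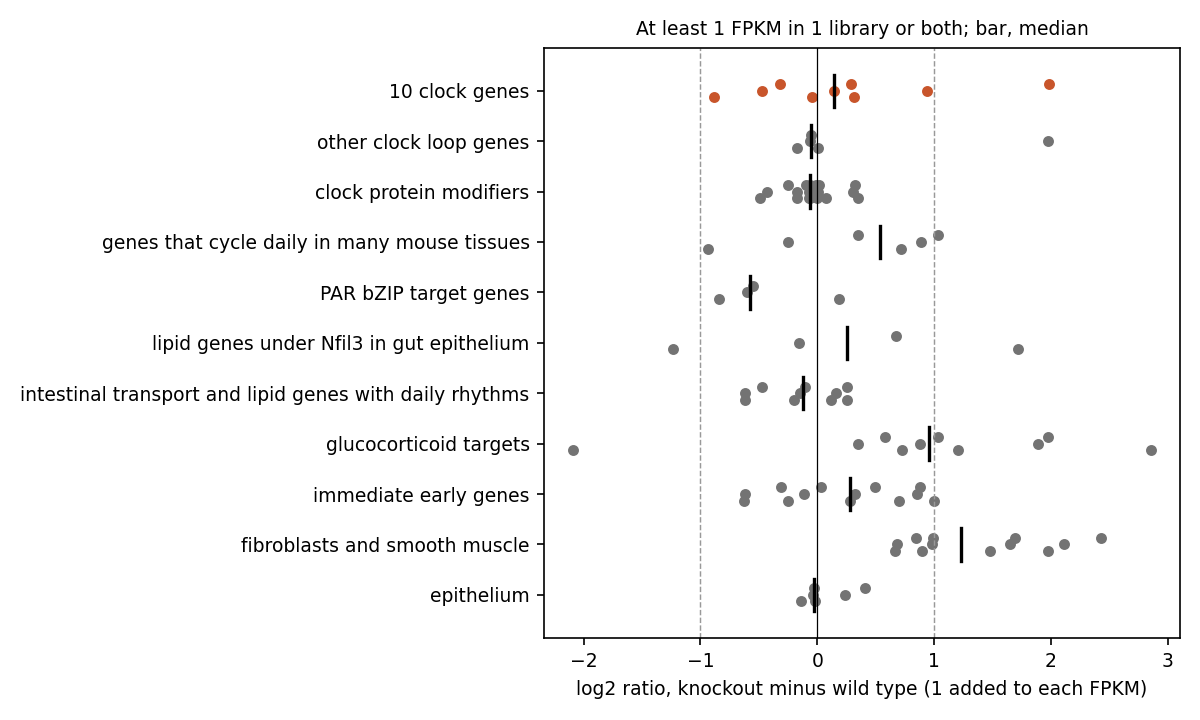
Log2 ratio of the knockout over the wild-type library (1 added to each FPKM) for each kept gene of the clock and comparison lists, with a bar at each list's median and dashed lines at 2-fold. The clock genes spread from -0.88 to 1.99 around a median of 0.14, while the glucocorticoid targets have a median of 0.96 and the fibroblast and smooth muscle markers one of 1.23.

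The epithelial label was checked against 6 markers, which summed to 9819 FPKM in wild type and 10614 in knockout, with none 2-fold apart. By log2 ratio 2 of the 6 were above 0 and 4 below, with a median of -0.025. The lists of markers of other cells summed to less, but not all single markers were lower: Gzma, a granzyme gene of cytotoxic lymphocytes, was at 250.5 and 261 FPKM, close to the epithelial cadherin gene Cdh1 at 267 and 260.1. The 12 fibroblast and smooth muscle markers of 13 that reached 1 FPKM were all above 0, 6 of them 2-fold higher (11 on deposited FPKM), and the list summed to 19.2 and 63.5 FPKM with no marker at 0 in both libraries. The 5 endothelial markers summed to 1.38 and 5.98 FPKM, with Kdr listed at 0 in the wild-type library. The 10 myeloid markers summed to 62.3 and 78.3 FPKM, with S100a8 at 0 in both. Of the 9 that reached 1 FPKM, 8 were above 0 and 1 (Tyrobp) below. The 7 listed T cell markers of 8 summed to 376 and 394 FPKM, with 4 above 0 and 3 below. The 5 B and plasma cell markers summed to 59.1 and 89.0 FPKM. Of these only 1, Jchain at 20.3 and 58.6 FPKM, was above 0, and 4 were below. No marker of enteric neurons or glia reached 1 FPKM. Clock genes are expressed in most cell types, and the part of these cells in the values above was not tested. In bulk RNA, fewer cells of a type and less RNA per cell cannot be told apart.

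MicroRNA sites were looked for because the mice lack miR-215. Its mature strand and that of miR-192, a microRNA with the same seed, are shown here as RefSeq gives them on GRCm38.p6, with the seed (bases 2 to 8) in capitals.
miR-215-5p: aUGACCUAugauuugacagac
miR-192-5p: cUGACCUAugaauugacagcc
A target carries the reverse complement of the seed, TAGGTCA. In the longest annotated 3′ UTR of each of the 10 clock genes, 269 to 2631 bases long, that heptamer was found in 0. It was found in 6.82% of the 10990 kept genes with a 3′ UTR. The weaker form AGGTCAA, which matches bases 2 to 7 and adds an A, was found once, in Per3, on the minus strand at chr4:151003835-151003863, with the match in capitals.
Per3 site: tcttgggtcagAGGTCAAaatttatgaaa
Either form was found in 11.9% of the kept genes. Per3 was higher in the knockout library on about 26 and 53 fragments, and whether this site has a part in that was not tested. Noct, Per2 and Nfil3 held neither form in these UTRs. The letters TAGGTCA are also the core of the element that REV-ERB and ROR proteins bind in DNA.

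Promoter sequences from RefSeq (GRCm38.p6), 250 bases before to 50 after each annotated start, were held for 9 of the 10 genes; Per2 had no entry. They were searched on both strands for the E-box CACGTG, its variant CACGTT, the D-box TTATGTAA, the REV-ERB and ROR elements TAGGTCA and TGGGTCA, the cAMP element TGACGTCA, and a glucocorticoid element of GNACA and TGTNC parted by 3 bases. No 2 of these forms overlapped in the promoters shown. Among 32851 promoter windows, CACGTG occurred in 7.15% and CACGTT in 4.68%. TTATGTAA occurred in 0.938%, TAGGTCA in 2.61%, TGGGTCA in 3.98%, the cAMP element in 1.79% and the glucocorticoid element in 0.475%. The last 3 were found in none of the 9.

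Noct is shown because its difference was the largest of the 10; none of the forms occurs in the stretch, which is chr3:51224197-51224446 on the plus strand and ends at the base before the start.
Noct: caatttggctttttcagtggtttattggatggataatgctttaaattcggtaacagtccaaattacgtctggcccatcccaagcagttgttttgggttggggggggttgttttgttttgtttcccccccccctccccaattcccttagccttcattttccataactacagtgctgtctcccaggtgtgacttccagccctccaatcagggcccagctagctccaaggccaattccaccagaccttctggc
Per3 is shown for its pair of D-boxes, in capitals, which begin 205 and 158 bases before the start (chr4:151044806-151044885, minus strand).
Per3: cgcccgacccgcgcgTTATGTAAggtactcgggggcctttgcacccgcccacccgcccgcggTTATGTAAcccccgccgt
Cry1 is shown for the only CACGTG among the 9, beginning 60 bases before the start, and for CACGTT on the other strand, read here as AACGTG, 79 bases before it (chr10:85185095-85185164, minus strand).
Cry1: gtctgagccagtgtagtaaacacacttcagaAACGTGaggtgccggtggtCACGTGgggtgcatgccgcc
Nfil3 is shown for TAGGTCA on the other strand, read as TGACCTA, 12 bases before the RefSeq start (chr13:52981040-52981069, minus strand). GENCODE places the start of Nfil3 34 bases further upstream, so there these letters fall within its first exon.
Nfil3: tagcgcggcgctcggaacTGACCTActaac

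The remaining matches were CACGTT in Cry2, 166 bases before the start, and in Nr1d1, 28 bases before it, and TAGGTCA in Arntl, 31 bases after 1 of its 2 starts. Nr1d2 and Dbp held none of the forms in this window. For Dbp, GENCODE places the start at 45705088, upstream of the RefSeq start and inside the window. Part of the bases searched before the RefSeq start thus lie within the annotated gene there. Genes with a REV-ERB and ROR element here were Arntl and Nfil3, of which Arntl was near level and Nfil3 was lower. Per3, whose window holds the D-boxes, was higher in the knockout library, on about 26 and 53 fragments. The deposited levels of both D-box regulators, Nfil3 and Dbp, were lower there, that of Dbp within counting error. Whether any of these matches bears on the levels was not tested. A match describes letters only; binding was not measured, and absence from this window says nothing of sites farther away.

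**Figure D5:**
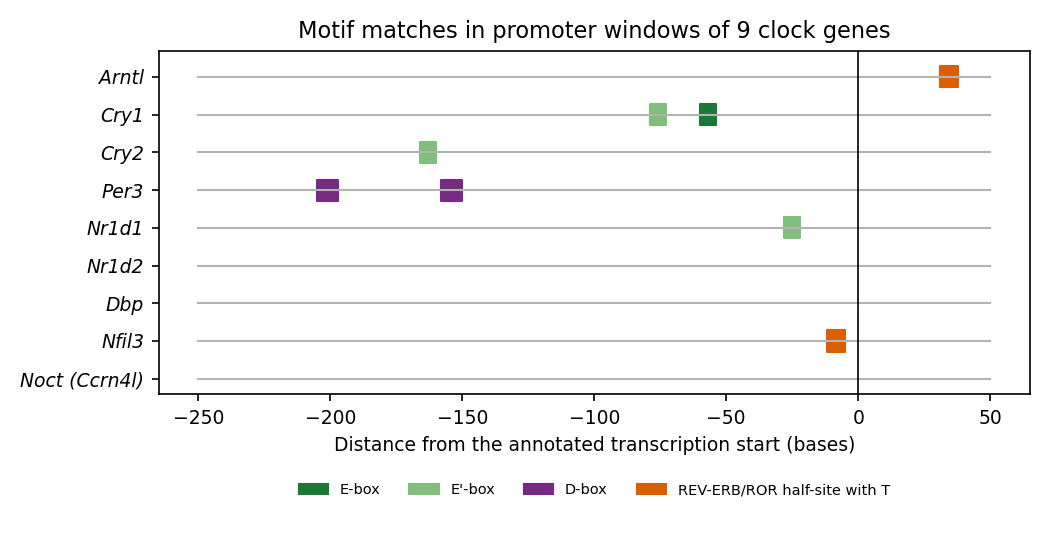
Positions of motif matches from 250 bases before to 50 bases after the annotated start (0) in the promoter windows of 9 clock genes, coloured by motif. Cry1 holds the only E-box, Per3 the 2 D-boxes, and Noct, Dbp and Nr1d2 hold none of the forms searched.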

How the data were processed

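Each deposited table holds 1 FPKM per gene, computed by the authors. Per the submitters' processing notes the build was mm10 and the tools were Cuffnorm 2.2.1, SAMtools 0.1.19, Bowtie2 2.2.3 and TopHat2 2.0.13, with settings, annotation and strand use not given in the sources used here. FPKM as the unit was inferred from the table layout and the values, since no header states it. Per the labels' protocols the libraries were made with a stranded mRNA kit.

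Genes reaching 1 FPKM in either library were kept, and log2(knockout + 1) minus log2(wild type + 1) was computed. This scale understates differences of low genes; folds are ratios of deposited FPKM. From steps between values under 0.3 FPKM (376 and 387 genes with 1 transcript longer than 1000 nt), 1 fragment over 1 kb, after 225 nt were taken off the length, was worth 0.103 FPKM in the wild-type and 0.0985 in the knockout library. Fragment numbers used the median transcript length in GENCODE M21, and Clopper-Pearson intervals, like the floor of 3 fragments, cover only counting error. The estimate was tested on simulated data.

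All 10 members were named by rule, with every other loop gene reported here. From the other gene lists, up to 4 genes past 2-fold and the most abundant were named. The lists of cell type markers were not named by this rule. Genes outside the rule that are named were chosen after their values were seen. The members and lists were chosen with earlier results of these data known, and the immediate early list was added after the values were seen. The counts of intervals apart from 1 and of genes past 2-fold on deposited FPKM, the motifs searched and the stretches of sequence printed were also chosen after the values were seen. Of the loop and modifier lists, 1 gene each is not reported here and is left out of their counts. With 2 libraries no genes of like pattern were sought. Alternatives were the pseudocount, the filter, the scaling and the transcript length. Python 3.11.15, pandas 2.3.3 and scipy 1.17.1 were used.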

Additional observations from a re-analysis of the deposited data

How the results depend on the processing

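The single clock gene past 2-fold as higher, Noct, was joined by Per2, for a count of 2, with a pseudocount of 0.1, with equal sums, with equal upper quartiles and on the deposited FPKM with nothing added (chosen after seeing the data). The count was 1 with a pseudocount of 5, without a filter and with a minimum of 5 FPKM, and 0 clock genes were 2-fold lower under any of these 7 alternatives. Among the other loop genes the count stayed at 1 higher and 0 lower. Over all kept genes the counts were 154 higher and 235 lower, 339 and 361 with a pseudocount of 0.1, 60 and 120 with a pseudocount of 5, 381 and 382 with nothing added, and 97 and 180 with a minimum of 5 FPKM. With equal sums they were 209 and 185, and with equal upper quartiles 199 and 193, a shift in the balance of higher against lower. The log2 ratio of Per3 was 0.38, and 0.84 with a pseudocount of 0.1. With a pseudocount of 5 that of Per2 was 0.50 and that of Noct 1.68. Among the other loop genes the log2 ratio of Per1 was 2.29 with a pseudocount of 0.1 and 1.26 with a pseudocount of 5. With equal sums or upper quartiles Arntl, Npas2, Bhlhe40 and Ciart changed sign, each from a ratio within 0.07 of 0. The shortest or longest annotated transcript changed for none of the 10 clock genes whether the counting interval lay above, below or across 1. No paired analysis was possible because each genotype has 1 library. Depth limits Dbp and Per3 most, at 18 to 53 fragments, and among the other loop genes the intervals of Rora, Bhlhe41, Ciart and Arntl2 included 1, those of Ciart and Arntl2 from at most 2 fragments a library.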
